A study of Drosophila melanogaster with 12 samples.

Results

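The elav fne double null was compared with WT in poly(A) RNA of whole Drosophila melanogaster embryos aged 20 to 24 h, across the 17561 genes of the count table. The comparison used 6 of the 12 libraries of the study, taken by their genotype labels, with 3 in each group. Double null embryos carried null alleles of elav and of fne. WT embryos were the control of the study and had one X chromosome with an elav mutation, called elav e5 in the labels and elav null in the column headers, and FM7 as the other. The other groups, 3 libraries each, were elav null and elav WDd, an allele of elav that the labels do not describe further. Mutants were chosen by the missing fluorescence of an FM7 balancer that carries KrGFP, so the groups differ in the balancer chromosome as well as in elav and fne. An elav mutant X over FM7 is a female genotype, so WT is female by its label. The labels state no sex for the double null embryos, so the groups may differ in sex. The number of egg collections behind a group is not given either, so the p-values measure the spread between these libraries, which may be technical.

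ELAV is an RNA-binding protein of neuronal nuclei that sets splicing and poly(A) site choice in neurons and is a widely used marker of the differentiated neuron. FNE and Rbp9 are its close relatives, and in flies FNE can take over part of the work of ELAV when ELAV is missing. An embryo of this age is close to hatching, with a wired nervous system, contracting body wall muscles, a filled gut and a hardening larval cuticle. Counts per gene, as used here, show transcript levels and do not show splicing or poly(A) site choice.

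The libraries of the comparison held 50165513 to 86777299 counts in the double null and 67841358 to 97043662 in WT. Double null replicate 2 stood apart from the other double null libraries. At an equal depth of 2e+07 counts it detected 11557 genes, against 15035 and 15571 in double null replicates 1 and 3 and 13262 to 14526 in WT. It had 1 to 10 counts for 157 genes, against 2187 and 2204 in the other 2 double null libraries. For part of the results below, the counts without it are given as well. Mitochondrial rRNA took 6.20% to 8.55% of the counts in the double null and 2.14% to 3.54% in WT, and its part in the results was not tested. In WT, 32 muscle genes summed to 58784 to 68673 CPM (the usual scaling of counts by library size, with TMM factors) and 92 genes of the largest cuticle protein family to 4305 to 7788 CPM.

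Both targeted genes were lower in the double null. elav (CG4262, X: 509235 to 523226, dm6) stood at 4.99, 5.53 and 6.12 CPM in the double null libraries, against 68.6, 109.5 and 161 CPM in WT (log2 fold change −4.35 with an SE of 0.30, adjusted p = 1.94e-06 by edgeR). fne (CG4396, X: 12917477 to 12950417) stood at 19.6, 30.6 and 19.8 CPM in the double null libraries, against 135, 202 and 249.7 CPM in WT (log2 fold change −3.07 with an SE of 0.51, adjusted p = 0.000666 by edgeR). Rbp9 (CG3151, 2L: 2954762 to 2968434), which neither allele targets, stood at 12.2, 10.3 and 13.2 CPM in the double null libraries, against 73.1, 85.4 and 94.5 CPM in WT (log2 fold change −2.82 with an SE of 0.32, adjusted p = 4.17e-05 by edgeR). For each of the 3 genes every double null library lay below every WT library. Rbp9 was lower without being targeted, so a low fne level alone does not check the fne label. The span of elav overlaps those of arg and of a long non-coding RNA gene, and the span of Rbp9 overlaps that of Ts, so residual reads may belong in part to the neighbours. A gene was called at an edgeR adjusted p under 0.05, and SE is the standard error of the log2 fold change, which is double null over WT throughout. A value in brackets directly after a gene name is its log2 fold change.

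In the double null, most of the muscle, ribosome biogenesis, mitochondrial ribosomal protein and transmitter synthesis genes tested were lower, and most of the antimicrobial peptide genes were higher. Glycolysis (62.5% lower), Tweedle and Vajk (55.2%), respiratory chain (53.2%), ion channel (52%) and aminoacyl-tRNA synthetase genes (51.5%) also had most tested members lower. Of the large heat shock and co-chaperone genes 53.3% were higher. In some other lists a smaller part was called, with 35 of 86 RR cuticle protein genes lower and 9 of 22 neuroblast and 21 of 61 midgut genes higher. Of 14031 genes tested, 937 were higher (6.68%) and 2061 lower (14.7%), which made 31.2% of the calls higher. The share of a list called below is to be read against these shares. The median log2 fold change was 1.09 among the higher genes and −1.31 among the lower ones, against −0.03 over all genes tested. Changes of at least 2-fold made up 533 of the higher and 1433 of the lower calls, and changes of at least 8-fold made up 103 and 241. The split depended on the scaling. With RLE size factors 1249 genes were higher and 1696 lower (42.4% of calls higher), and with DESeq2 1683 were higher and 2031 lower (45.3%), while the median of all genes stood at 0.10 and 0.17. The groups did not overlap for 925 of the higher and 2039 of the lower genes, against 42.4% of all genes tested. The calls were made on the same libraries, so called genes mostly separate by the way they were picked. Lack of overlap is therefore a description of the values and no separate support, here or for the genes named below. Without double null replicate 2 the counts were 712 higher and 1642 lower. Among fits that left out 1 library of the comparison, the count of higher genes was lowest without WT replicate 2, at 602. Without elav null replicate 3, which enters the fit but not the contrast, 1292 genes were higher and 2519 lower.

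**Figure D1:**
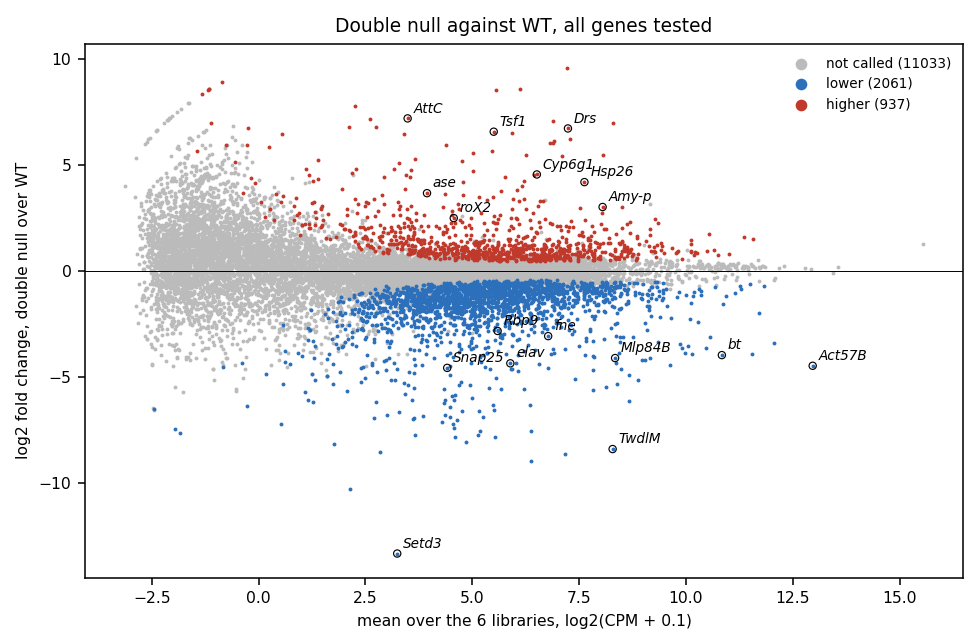
Log2 fold change of the double null over WT (vertical axis) against the mean level over the 6 libraries (horizontal axis, log2 of CPM + 0.1) for the 14031 genes tested. Red points are the 937 genes called higher, blue points the 2061 called lower and grey points the rest, and circled genes are named in the text. Blue points extend from −0.42 down to −13.30 and red points from 0.47 up to 9.55.

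Among genes with a symbol, a mean of at least 5 CPM and groups that did not overlap, the 8 with the highest log2 fold change were snRNA:7SKa, 6 antimicrobial peptide genes and Tsf1, which encodes the iron carrier transferrin. Tsf1 (CG6186, X: 18387084 to 18390344) stood at 92.02, 54.8 and 122 CPM in the double null libraries, against 1.17, 1.03 and 0.634 CPM in WT (log2 fold change 6.56 with an SE of 0.77, adjusted p = 6.1e-05 by edgeR). The 7SK RNA gene snRNA:7SKa, whose RNA holds back a transcription elongation factor, stood at 189, 2.27 and 693 CPM in the double null libraries, against 0.229, 0.114 and 0.86 CPM in WT. Its double null values spread over more than 2 orders of magnitude with replicate 2 the lowest, and 7SK RNA is not polyadenylated as a rule. The 8 lowest were Setd3, the cuticle protein genes TwdlB, TwdlM, TwdlD, Ccp84Ae and Vajk4, nur and Cyp309a2.

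By absolute level, and among called genes with a name rather than a number, the 4 largest rises in mean CPM were those of TwdlN, Jon25Biii, Gdh and Fst, and the 4 largest falls those of Act57B, Mhc, Mlc2 and bt. The mitochondrial large rRNA gene lrRNA, which was not called, differed by more, at 60219, 86310 and 56829 CPM in the double null libraries, against 37492, 25657 and 21855 CPM in WT (edgeR adjusted p = 0.232). Gdh, which encodes glutamate dehydrogenase, stood at 2774, 2928 and 2177 CPM in the double null libraries, against 1425, 1374 and 1692 CPM in WT (log2 fold change 0.81 with an SE of 0.18, adjusted p = 0.00595 by edgeR). Fst, a gene named for its response to cold, stood at 2274, 2407 and 1700 CPM in the double null libraries, against 1049, 1006 and 1185 CPM in WT (log2 fold change 0.98 with an SE of 0.19, adjusted p = 0.00194 by edgeR). In neither gene did the groups overlap. Both changes are below 2-fold, and neither was called with a 2-fold minimum.

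Transcripts of synaptic release, transmitter supply and excitability were lower in the double null, in part of each list. Snap25 (CG40452, 3L: 24074180 to 24299205), a membrane-bound SNARE of vesicle fusion, stood at 1.77, 2.13 and 1.25 CPM in the double null libraries, against 34.7, 43.2 and 44.2 CPM in WT (log2 fold change −4.56 with an SE of 0.42, adjusted p = 1.19e-05 by edgeR). Syt7, a calcium sensor of the synaptotagmin family, stood at 15.4, 15.6 and 16.99 CPM in the double null libraries, against 56.4, 64.3 and 71 CPM in WT (log2 fold change −1.997 with an SE of 0.25, adjusted p = 9.66e-05 by edgeR). Rop, the fly Munc18 that binds syntaxin, stood at 131, 144 and 125 CPM in the double null libraries, against 202, 222 and 232 CPM in WT (log2 fold change −0.71 with an SE of 0.15, adjusted p = 0.0043 by edgeR). All 3 had double null libraries below the WT libraries, with little spread inside the double null. Of the vesicle and active zone list, 0 of 24 tested members were higher and 9 lower (37.5%, against 14.7% of all genes tested), at a median of −0.45. The other called members were nSyb (−1.16), Syngr (−1.01), cpx (−1.004), comt (−0.87), Csp (−0.82) and lap (−0.60), given as log2 fold changes. Genes of the active zone that were not called include brp at −0.43, Rim at −0.44 and unc-13 at −0.26, nor was Syx1A at 0.08. The count of lower members fell to 4 without double null replicate 1 and to 5 without double null replicate 3 or WT replicate 3. DESeq2 called 0 higher and 7 lower, and at an unadjusted edgeR p under 0.05 there were 0 higher and 13 lower. In bulk RNA of whole embryos, fewer neurons and less RNA per neuron cannot be told apart, here or for any other cell type below.

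Genes that make or carry transmitters were lower across several transmitter systems. Ddc, which makes dopamine and serotonin, stood at 24.6, 35.1 and 18.7 CPM in the double null libraries, against 107, 162 and 142 CPM in WT (log2 fold change −2.39 with an SE of 0.33, adjusted p = 0.000193 by edgeR). ChT, the choline transporter, stood at 15.6, 21.1 and 16.7 CPM in the double null libraries, against 32.9, 35.8 and 52.8 CPM in WT (log2 fold change −1.18 with an SE of 0.21, adjusted p = 0.00105 by edgeR). SerT, the serotonin transporter, stood at 7.01, 4.24 and 9.15 CPM in the double null libraries, against 18.5, 17.8 and 27.1 CPM in WT (log2 fold change −1.64 with an SE of 0.29, adjusted p = 0.0011 by edgeR). The groups did not overlap for any of them. In this list 0 of 15 tested members were higher and 10 lower (66.7%, against 14.7% of all genes tested). The median was −1.47 and all 15 log2 fold changes were below 0. Called members came from acetylcholine (ChAT −1.90, ChT), glutamate (VGlut −1.87), GABA (VGAT −2.98, Gad1 −1.14) and monoamine (Vmat −2.19, DAT −1.48, ple −1.47) neurons. Tdc2, Tbh, Trhn, Hdc and VAChT, at −1.20, −0.99, −1.17, −0.66 and −0.69, did not pass the test. Ddc and ple are also expressed in the epidermis, where they feed cuticle tanning. Over the fits that leave out 1 of the 6 compared libraries, 9 to 11 were lower, and 14 were without elav null replicate 3. With DESeq2 0 higher and 10 lower were called, and at an unadjusted edgeR p there were 0 higher and 14 lower.

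Among ion channel genes, potassium channels and their regulators were among the largest falls. Shal, the pore of a fast inactivating potassium current, stood at 28.7, 29.7 and 31.2 CPM in the double null libraries, against 84.4, 93.9 and 117 CPM in WT (log2 fold change −1.72 with an SE of 0.23, adjusted p = 0.000139 by edgeR). Shab, a delayed rectifier, stood at 35.6, 44.3 and 43.6 CPM in the double null libraries, against 192, 232 and 452 CPM in WT (log2 fold change −2.83 with an SE of 0.48, adjusted p = 0.000742 by edgeR). qvr, whose product sets the level and gating of the Shaker channel, stood at 9.69, 21.3 and 9.97 CPM in the double null libraries, against 81.3, 95.7 and 145 CPM in WT (log2 fold change −2.97 with an SE of 0.56, adjusted p = 0.00166 by edgeR). Each was lower in every double null library, and WT replicate 3 was the highest WT library for all 3. 0 of 25 tested members were higher and 13 lower (52%, against 14.7% of all genes tested), at a median of −0.78. The sodium channel para (−0.09), the calcium channel cac (0.36) and the potassium channels Sh (−0.25) and eag (−0.20) were not called, while the auxiliary genes unc80 (−2.14), stj (−0.80) and tipE (−0.69) were lower. This count leaned on single libraries, with 5 lower without double null replicate 1, 8 and 7 without double null replicates 2 and 3, and 6 without WT replicate 3. DESeq2 called 0 higher and 11 lower, and 0 higher and 19 lower had an unadjusted edgeR p under 0.05.

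Receptor genes were lower in smaller number. nAChRalpha7, a subunit of an acetylcholine-gated channel, stood at 12.4, 17.2 and 14.5 CPM in the double null libraries, against 41.1, 62.96 and 84.8 CPM in WT (log2 fold change −2.10 with an SE of 0.37, adjusted p = 0.000965 by edgeR). nAChRalpha4 stood at 5.94, 7.01 and 6.35 CPM in the double null libraries, against 39.6, 51.1 and 81.01 CPM in WT (log2 fold change −3.15 with an SE of 0.56, adjusted p = 0.00114 by edgeR). Lcch3, a subunit of GABA-gated channels, stood at 7.36, 4.66 and 7.33 CPM in the double null libraries, against 17.8, 17.98 and 18.5 CPM in WT (log2 fold change −1.49 with an SE of 0.26, adjusted p = 0.00102 by edgeR). Double null and WT values were apart for all 3. In the list of transmitter receptors 0 of 27 tested members were higher and 8 lower (29.6%, against 14.7% of all genes tested), at a median of −0.54. That median is closer to that of all genes than the medians of the transmitter and channel lists. Other nicotinic subunits were not called, with nAChRalpha1 at 0.21, nAChRalpha5 at 0.18 and nAChRbeta1 at −0.60, and the main GABA receptor gene Rdl stood at −0.43. The lower count was 13 without elav null replicate 3. DESeq2 called 0 higher and 8 lower, and 0 higher and 12 lower had an unadjusted edgeR p under 0.05.

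Neuropeptide genes ranged widely. Proc, which encodes proctolin, a peptide that acts on muscle, stood at 7.8, 6.87 and 9.58 CPM in the double null libraries, against 47.9, 43.4 and 58.98 CPM in WT (log2 fold change −2.63 with an SE of 0.46, adjusted p = 0.000942 by edgeR). AstA, an allatostatin gene, stood at 13.5, 13.2 and 11.7 CPM in the double null libraries, against 34.9, 33.2 and 28.1 CPM in WT (log2 fold change −1.32 with an SE of 0.25, adjusted p = 0.00178 by edgeR), and AstC, another, stood at 11.9, 11.1 and 11.2 CPM in the double null libraries, against 27.2, 33.99 and 25.4 CPM in WT (log2 fold change −1.34 with an SE of 0.25, adjusted p = 0.00178 by edgeR). In all 3 the double null libraries were lower and close to each other. 0 of 35 tested members were higher and 9 lower (25.7%, against 14.7% of all genes tested) and the median was −0.82. The largest falls in the list were those of the ecdysis peptide gene Eh, at 0.0947, 0 and 0.107 CPM in the double null libraries, against 3.53, 2.67 and 1.89 CPM in WT (log2 fold change −5.32), and of the insulin-like peptide gene Ilp2, at 0.774, 0 and 0.482 CPM in the double null libraries, against 11.5, 11.2 and 6.99 CPM in WT (log2 fold change −4.58), both picked out after their values were seen. Peptidergic cell genes that were not called include dimm (−0.005), Phm (0.34), Dh44 (−0.03) and Tk (0.46), while the processing protease gene amon was lower (−0.75). Lower members numbered 5 without WT replicate 2 or double null replicate 1, 17 without elav null replicate 3, 14 with the 6 compared libraries alone and 18 when the 3 libraries of fewest detected genes were left out. DESeq2 called 2 higher and 11 lower, and 2 higher and 15 lower had an unadjusted edgeR p under 0.05.

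Genes of neuronal shape and wiring moved less. Cam, which encodes calmodulin, stood at 486, 634 and 462 CPM in the double null libraries, against 1202, 1181 and 1312 CPM in WT (log2 fold change −1.22 with an SE of 0.19, adjusted p = 0.000447 by edgeR). The frequenin gene Frq2, a calcium-binding regulator of release, stood at 13.2, 21.3 and 13.4 CPM in the double null libraries, against 43.5, 45.7 and 74.7 CPM in WT (log2 fold change −1.77 with an SE of 0.29, adjusted p = 0.000607 by edgeR). nrv3, a sodium pump subunit of neurons, stood at 257, 373 and 271 CPM in the double null libraries, against 663, 799 and 953 CPM in WT (log2 fold change −1.42 with an SE of 0.27, adjusted p = 0.00182 by edgeR). The groups were apart for all 3. In the list of neuronal structure genes 0 of 24 tested members were higher and 7 lower (29.2%, against 14.7% of all genes tested), at a median of −0.29. Pan-neuronal and axonal genes in it that did not pass the test include futsch (0.25), tau (0.15), Appl (0.06), Nrg (−0.25) and Fas2 (0.10). DESeq2 called 0 higher and 7 lower, and 0 higher and 9 lower had an unadjusted edgeR p under 0.05.

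Axon guidance genes were mostly not called. The midline attractant gene NetA stood at 19.3, 21.2 and 22.9 CPM in the double null libraries, against 49.9, 46.5 and 55.2 CPM in WT (log2 fold change −1.26 with an SE of 0.23, adjusted p = 0.00152 by edgeR). comm2, a relative of the gene that clears the Robo receptor from axons, stood at 48.9, 42.4 and 34.7 CPM in the double null libraries, against 22.4, 23.1 and 20.1 CPM in WT (log2 fold change 0.94 with an SE of 0.22, adjusted p = 0.00624 by edgeR). trn, a leucine-rich repeat surface protein gene, stood at 57.6, 64.8 and 55.8 CPM in the double null libraries, against 35.4, 37.4 and 44.99 CPM in WT (log2 fold change 0.60 with an SE of 0.15, adjusted p = 0.0102 by edgeR). None of the 3 overlapped between groups. 4 of 29 tested members were higher and 3 lower (13.8% and 10.3%, against 6.68% and 14.7% of all genes tested) and the median was −0.01, with drl (0.61) and robo2 (0.79) higher and Lar (−1.09) and Ephrin (−0.75) lower. The higher count was 2 without WT replicate 1 or any 1 double null library and 7 without WT replicate 3, and the lower count was 5 without WT replicate 1 and 1 without double null replicate 1 or 3.

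Of the Dpr and DIP genes, immunoglobulin surface proteins that bind each other across synapses, 0 of 32 tested members were higher and 7 lower, at a median of −0.32. The lower share was 21.9%, against 14.7% of all genes tested. dpr14 stood at 6.58, 9.46 and 6.299 CPM in the double null libraries, against 19.6, 23.9 and 31.5 CPM in WT (log2 fold change −1.75 with an SE of 0.29, adjusted p = 0.000678 by edgeR), and dpr10 stood at 24.03, 19.6 and 25.6 CPM in the double null libraries, against 35, 39.9 and 44.01 CPM in WT (log2 fold change −0.78 with an SE of 0.18, adjusted p = 0.00637 by edgeR). dpr21 stood at 0.6, 0 and 0.232 CPM in the double null libraries, against 8.44, 9.56 and 12.4 CPM in WT (log2 fold change −5.21 with an SE of 1.01, adjusted p = 0.00208 by edgeR). Double null values lay below WT in each. The other calls were dpr7, dpr19, dpr20 and dpr1, so the 7 called genes are Dpr members and none a DIP member. Members called lower were 3 without double null replicate 1 and 4 without double null replicate 2 or 3 or WT replicate 2 or 3, and 11 without elav null replicate 3 and 10 without the 3 libraries of fewest detected genes. DESeq2 called 2 higher and 6 lower, and 1 higher and 11 lower had an unadjusted edgeR p under 0.05.

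Markers of neural progenitors were higher in the double null. Neuroblasts are the stem cells of the fly nervous system, and late embryos hold few that still divide. ase (CG3258, X: 460747 to 463176), a proneural gene of neuroblasts, stood at 25.97, 32.6 and 26.2 CPM in the double null libraries, against 2.45, 1.89 and 2.35 CPM in WT (log2 fold change 3.66 with an SE of 0.58, adjusted p = 0.000498 by edgeR). nerfin-1, a zinc finger gene of early neurons and neuroblasts, stood at 16.1, 21.7 and 20.3 CPM in the double null libraries, against 3.57, 2.21 and 4.81 CPM in WT (log2 fold change 2.45 with an SE of 0.37, adjusted p = 0.000332 by edgeR). mira, whose product carries fate determinants into the daughter cell, stood at 46.2, 57.1 and 45.1 CPM in the double null libraries, against 11.4, 8.33 and 13.1 CPM in WT (log2 fold change 2.18 with an SE of 0.35, adjusted p = 0.000578 by edgeR). Every double null library was above every WT library for these genes, by several fold in ase. 9 of 22 tested members were higher (40.9%, against 6.68% of all genes tested) and 0 lower of the list, with a median of 0.95. The proneural genes sc (3.04) and l(1)sc (3.46), and wor (2.06), cas (1.22), insc (0.96) and SoxN (0.93) made up the other calls. Among members that were not called were dpn (2.14), pros (0.55), brat (0.46), numb (0.19) and grh (0.09). Without WT replicate 1 the higher count was 5, and without double null replicate 2 it was 7. DESeq2 called 13 higher and 0 lower, and 13 higher and 0 lower had an unadjusted edgeR p under 0.05.

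Genes of the Notch pathway were not called by edgeR with all 12 libraries in the fit. In the Enhancer of split list of Notch targets 0 of 11 tested members were higher and 0 lower by edgeR, while DESeq2 called 5 higher and 0 lower and 5 higher and 1 lower had an unadjusted edgeR p under 0.05. Other sets of libraries gave edgeR calls in it, 3 higher with the 6 compared libraries alone, 4 higher and 1 lower without elav null replicate 3, and 3 higher without the 3 libraries of fewest detected genes. Its median was 1.04, and the summed level was 43.1, 30.7 and 37.8 CPM in double null libraries 1 to 3 and 30.7, 32.2 and 22.5 CPM in WT, so these are low transcripts. In the list of Notch pathway genes 0 of 15 tested members were higher and 0 lower by edgeR, while DESeq2 called 2 higher and 0 lower and 1 higher and 0 lower had an unadjusted edgeR p under 0.05, and 1 was higher without elav null replicate 3. The cell cycle list had a median of −0.45. In it 1 of 31 tested members were higher and 2 lower (3.23% and 6.45%, against 6.68% and 14.7% of all genes tested). dap, an inhibitor of cyclin E that ends division, was the higher gene, at 55.2, 58.3 and 54.8 CPM in the double null libraries, against 24.7, 16.9 and 20.4 CPM in WT (log2 fold change 1.44 with an SE of 0.33, adjusted p = 0.006 by edgeR). CycE (−0.31), stg (−0.45) and PCNA (−0.83) were not called. Lower members numbered 4 without WT replicate 3 and 0 without double null replicate 1. E2f1 (−0.58) was no longer called without double null replicate 1, nor dup (−1.42) without any 1 double null library or WT replicate 1 or 2.

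Most glial genes were not called. repo, the transcription factor gene that marks most glia, stood at 33.1, 42.7 and 36.1 CPM in the double null libraries, against 16.6, 16.2 and 17.6 CPM in WT (log2 fold change 1.15 with an SE of 0.20, adjusted p = 0.000816 by edgeR). Mdr65, a pump of the blood-brain barrier, stood at 138, 176 and 121 CPM in the double null libraries, against 82.1, 79.6 and 106 CPM in WT (log2 fold change 0.70 with an SE of 0.17, adjusted p = 0.0103 by edgeR). Vmat, which loads monoamines into vesicles and is also expressed in a class of barrier glia, stood at 36.8, 37.7 and 39.9 CPM in the double null libraries, against 119.8, 155 and 247 CPM in WT (log2 fold change −2.19 with an SE of 0.44, adjusted p = 0.00268 by edgeR). The groups were apart for the 3 genes. 3 of 20 tested members were higher and 3 lower (15% each, against 6.68% higher and 14.7% lower over all genes tested) and the median was 0.08. Cont (0.57) was the other higher gene, wrapper (−1.40) and ogre (−0.42) were the other lower ones, and gcm (0.68), moody (0.47) and alrm (−0.18) were not called. The higher count was 5 without WT replicate 3 or elav null replicate 3, and the lower count was 1 without WT replicate 1 or 2 or double null replicate 1 or 2. With DESeq2 and with RLE size factors 6 were higher and 2 lower.

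Other RNA-binding proteins of neurons were mostly not called. Syp, the fly relative of a human synaptotagmin-binding RNA-binding protein and a timer in neuroblasts, stood at 10.2, 9.12 and 10.97 CPM in the double null libraries, against 0.895, 0.7002 and 1.55 CPM in WT (log2 fold change 3.26 with an SE of 0.77, adjusted p = 0.00772 by edgeR). Hrb98DE, an hnRNP gene, stood at 97.1, 134 and 100.3 CPM in the double null libraries, against 233, 226 and 225 CPM in WT (log2 fold change −1.05 with an SE of 0.16, adjusted p = 0.000347 by edgeR). Fmr1, the fragile X gene of the fly, stood at 36.8, 28.6 and 37.7 CPM in the double null libraries, against 58.4, 70.7 and 69.8 CPM in WT (log2 fold change −0.95 with an SE of 0.21, adjusted p = 0.00522 by edgeR). These 3 did not overlap between groups. 1 of 21 tested members were higher and 5 lower (4.76% and 23.8%, against 6.68% and 14.7% of all genes tested) at a median of −0.29. sm (−0.95), qkr58E-1 (−0.65) and qkr58E-2 (−0.57) were also lower, and Rbfox1 (−0.18), pum (−0.06), Imp (0.01) and bru3 (−0.29) were not called. Members called lower were 3 without WT replicate 3 or any 1 double null library. Syp was called in each fit that left out 1 library.

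Among genes of sensory neurons, ppk, a sodium channel of the class IV neurons of the body wall, stood at 4.04, 5.12 and 4.32 CPM in the double null libraries, against 25.7, 30.4 and 27.9 CPM in WT (log2 fold change −2.64 with an SE of 0.29, adjusted p = 3.66e-05 by edgeR). nompC, the touch and hearing channel, stood at 10.1, 14.4 and 12.7 CPM in the double null libraries, against 26.98, 38.1 and 46.5 CPM in WT (log2 fold change −1.59 with an SE of 0.24, adjusted p = 0.000298 by edgeR). Rh6, a rhodopsin of the larval eye, stood at 21.4, 19.04 and 20.3 CPM in the double null libraries, against 10.8, 11.2 and 9.99 CPM in WT (log2 fold change 0.92 with an SE of 0.26, adjusted p = 0.0207 by edgeR). Both mechanosensory genes were lower and Rh6 higher in every double null library. 1 of 27 tested members were higher and 3 lower at a median of −0.22, with pyx (−0.74) the remaining lower gene. Higher members numbered 2 without elav null replicate 3, and the lower share of the list was 11.1%, against 14.7% of all genes tested. The Rh6 call was lost without WT replicate 2 or 3 or double null replicate 1 or 3. The proneural genes of sense organs, ato (2.63), cato (3.35) and amos (4.15), were not called.

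**Figure D2:**
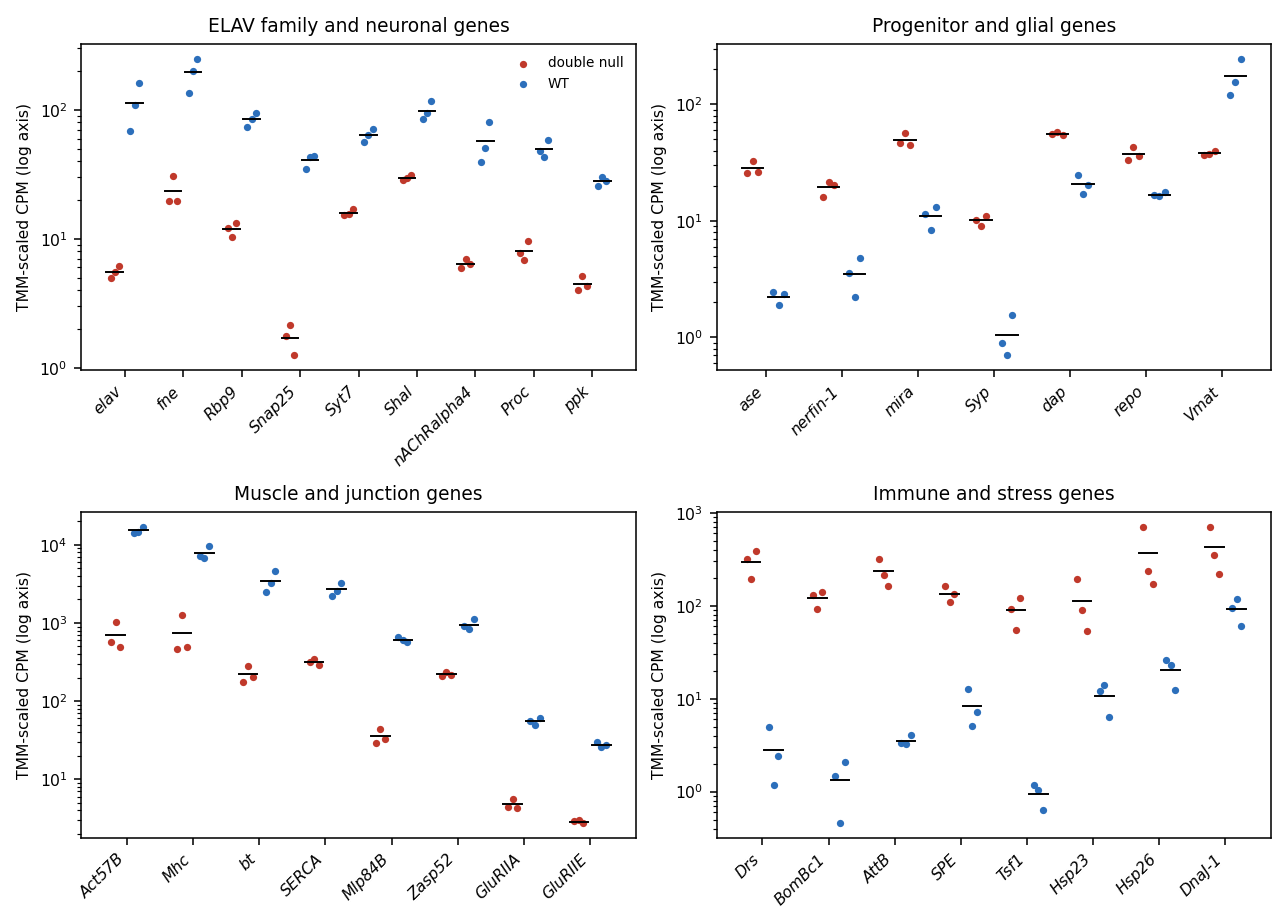
TMM-scaled CPM on a log axis for genes named in the text, with 1 point per library, double null in red to the left of WT in blue, and a black line at each group mean (n = 3). In the upper left panel the double null points lie below WT for all 9 genes, as for elav at 4.99 to 6.12 CPM in the double null against 68.6 to 161 CPM in WT. In the upper right panel ase, nerfin-1, mira, Syp, dap and repo lie above WT and Vmat below, in the lower left panel all 8 genes lie below WT, and in the lower right panel all 8 lie above, with Hsp26 spread from 170.1 to 712 CPM within the double null.

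Muscle genes held the 4 largest falls in mean CPM among called genes with a name. Of 32 muscle genes tested, 0 were higher and 29 lower, with a median log2 fold change of −3.49, and their summed level was 7060, 9014 and 7866 CPM in double null libraries 1 to 3 and 64455, 58784 and 68673 CPM in WT. Act57B (CG10067, 2R: 20944021 to 20946431), a muscle actin, stood at 565, 1024 and 494 CPM in the double null libraries, against 14330, 14470 and 17085 CPM in WT (log2 fold change −4.46 with an SE of 0.65, adjusted p = 0.000254 by edgeR). Mhc, the muscle myosin heavy chain, stood at 467, 1264 and 499 CPM in the double null libraries, against 7187, 6795 and 9549 CPM in WT (log2 fold change −3.40 with an SE of 0.57, adjusted p = 0.000741 by edgeR). bt, which encodes the giant kinase projectin, stood at 174, 284 and 206 CPM in the double null libraries, against 2453, 3280 and 4596 CPM in WT (log2 fold change −3.96 with an SE of 0.47, adjusted p = 5.9e-05 by edgeR). No double null library reached the lowest WT library for these genes, and double null replicate 2 was the highest of the double null libraries for each. Mlc2, a myosin light chain, was likewise lower, at 269, 603 and 235 CPM in the double null libraries, against 7192, 5376 and 4292 CPM in WT (log2 fold change −3.93 with an SE of 0.63, adjusted p = 0.00051 by edgeR).

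The fall took in thin filament, thick filament, Z disc and calcium store genes alike. SERCA, the calcium pump of the store, stood at 315, 349 and 288 CPM in the double null libraries, against 2236, 2597 and 3263 CPM in WT (log2 fold change −3.09 with an SE of 0.29, adjusted p = 1.27e-05 by edgeR). Zasp52, of the Z disc, stood at 212, 237 and 218 CPM in the double null libraries, against 902, 835 and 1109 CPM in WT (log2 fold change −2.09 with an SE of 0.21, adjusted p = 2.27e-05 by edgeR). Mlp84B, a LIM protein of the Z disc, stood at 29.6, 44.5 and 33.2 CPM in the double null libraries, against 658, 611 and 569 CPM in WT (log2 fold change −4.10 with an SE of 0.42, adjusted p = 2.29e-05 by edgeR). Their double null values lay close together and well under WT. The log2 fold changes of the troponin C genes were −5.30, −4.30 and −4.01 for TpnC47D, TpnC25D and TpnC73F, and the calcium release channel gene RyR was at −3.16. Mef2 (−0.40), the transcription factor that turns on muscle genes, and Msp300 (−0.16) and flr (−0.12) were not called. Neurochondrin (−2.26), counted among the 29, is not a sarcomere gene. Over the fits that leave out 1 of the 6 compared libraries, 29 to 30 were lower, 29 without double null replicate 2 and 29 by DESeq2, and 30 had an unadjusted edgeR p under 0.05.

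Glutamate receptor genes of the neuromuscular junction were lower as well. GluRIIA (CG6992, 2L: 5555072 to 5558994), a subunit that sets the size of the muscle response, stood at 4.44, 5.59 and 4.3 CPM in the double null libraries, against 55.4, 49.7 and 61.2 CPM in WT (log2 fold change −3.53 with an SE of 0.26, adjusted p = 2.61e-06 by edgeR). GluRIIE, a subunit needed in every such receptor, stood at 2.89, 2.98 and 2.75 CPM in the double null libraries, against 30.1, 25.7 and 27.8 CPM in WT (log2 fold change −3.28 with an SE of 0.34, adjusted p = 2.27e-05 by edgeR). GluRIIB, the alternative to GluRIIA, stood at 2.13, 4.84 and 1.82 CPM in the double null libraries, against 11.7, 15.4 and 12.6 CPM in WT (log2 fold change −2.17 with an SE of 0.40, adjusted p = 0.00131 by edgeR). The groups did not overlap, and double null replicate 2 was the highest double null library in all 3. Of the junction list 1 of 17 tested members were higher and 6 lower (5.88% and 35.3%, against 6.68% and 14.7% of all genes tested). GluRIIC (−1.93), Neto (−1.17) and dlg1 (−1.001) were the other lower genes, and GluRIID (−2.04) was not called. The span of GluRIIE overlaps that of GluRIID. The BMP pathway that signals back to the motor neuron showed gbb, its ligand, higher (0.77) and its receptors wit (0.48), tkv (0.36) and sax (0.07) not called. The gbb call was lost without WT replicate 2 or 3 and without any 1 double null library, while the higher count was 2 without elav null replicate 3 and 3 with DESeq2.

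In the list of muscle attachment and integrin genes 0 of 19 tested members were higher and 8 lower, at a median of −0.65. The lower share was 42.1%, against 14.7% of all genes tested. if, which encodes an integrin alpha chain of the muscle end, stood at 108, 129 and 113 CPM in the double null libraries, against 280.2, 271 and 360.2 CPM in WT (log2 fold change −1.38 with an SE of 0.19, adjusted p = 0.000188 by edgeR). Ilk, an integrin adaptor, stood at 73.4, 69.2 and 63.01 CPM in the double null libraries, against 171, 128 and 119.8 CPM in WT (log2 fold change −1.03 with an SE of 0.18, adjusted p = 0.00122 by edgeR). Tsp, thrombospondin of the tendon matrix, stood at 54.8, 60.5 and 50.2 CPM in the double null libraries, against 119.7, 102 and 96.6 CPM in WT (log2 fold change −0.94 with an SE of 0.18, adjusted p = 0.00162 by edgeR). Double null libraries lay below WT in each. kon (−1.97), the tendon transcription factor gene sr (−1.36) and parvin (−0.71) were lower too, while the integrin beta chain gene mys (−0.34) and rhea (−0.62), which encodes talin, were not called. Lower members numbered 5 without double null replicate 3, and 1 member was higher without elav null replicate 3. DESeq2 called 0 higher and 8 lower, and 0 higher and 13 lower had an unadjusted edgeR p under 0.05.

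Cuticle protein genes were called lower more often than higher. Of the RR family, whose proteins bind chitin, 3 of 86 tested members were higher and 35 lower (92 members in all), at a median of −1.54. These shares were 3.49% and 40.7%, against 6.68% and 14.7% of all genes tested. Cpr78Cc (CG7658, 3L: 21300580 to 21301171) stood at 28.9, 28.4 and 28.7 CPM in the double null libraries, against 384, 325 and 283 CPM in WT (log2 fold change −3.53 with an SE of 0.23, adjusted p = 1.31e-06 by edgeR). Lcp65Ag1 stood at 31.4, 29.5 and 31.5 CPM in the double null libraries, against 830.0, 627 and 419 CPM in WT (log2 fold change −4.34 with an SE of 0.33, adjusted p = 2.88e-06 by edgeR), and Cpr78Cb stood at 7.705, 7.28 and 8.19 CPM in the double null libraries, against 85.2, 57.8 and 46.6 CPM in WT (log2 fold change −3.03 with an SE of 0.23, adjusted p = 2.72e-06 by edgeR). The double null values of these 3 genes hardly varied, while WT replicate 3 was the lowest WT library in each. The deepest fall in the family was that of Ccp84Ae, at 0.395, 0 and 0.571 CPM in the double null libraries, against 62.6, 59.05 and 16.6 CPM in WT (log2 fold change −7.23 with an SE of 1.26, adjusted p = 0.000963 by edgeR). Ccp84Aa, Ccp84Ab, Ccp84Ac, Ccp84Ad and Ccp84Ag were lower beside Ccp84Ae, and near-identical copies such as Lcp65Ag1 and Lcp65Ag2 may share reads. Cpr49Ac (2.65), Cpr11B (0.89) and Cpr65Ay (0.74) were higher, and the higher count was 1 without double null replicate 2 or WT replicate 2. Over the fits that leave out 1 of the 6 compared libraries, 30 to 37 were lower, and 38 were without elav null replicate 3. DESeq2 called 5 higher and 35 lower.

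Tweedle and Vajk genes, 2 other families of cuticle proteins, held deep falls and also a rise, that of TwdlN. TwdlB stood at 0.995, 0.1398 and 1.11 CPM in the double null libraries, against 480.5, 271 and 108 CPM in WT (log2 fold change −8.62 with an SE of 1.03, adjusted p = 6.47e-05 by edgeR), and TwdlM stood at 2.18, 0.967 and 2.48 CPM in the double null libraries, against 981, 691 and 191 CPM in WT (log2 fold change −8.38 with an SE of 0.96, adjusted p = 4.87e-05 by edgeR). TwdlO stood at 532, 325 and 516 CPM in the double null libraries, against 69.5, 75.4 and 60.1 CPM in WT (log2 fold change 2.74 with an SE of 0.29, adjusted p = 2.44e-05 by edgeR), and TwdlN stood at 4814, 4561 and 4172 CPM in the double null libraries, against 2111, 1032 and 1597 CPM in WT (log2 fold change 1.51 with an SE of 0.26, adjusted p = 0.000896 by edgeR). In TwdlB and TwdlM the WT libraries were spread, with replicate 3 the lowest, but all lay far above the double null, and in TwdlO and TwdlN all 3 double null libraries were the higher ones. All 4 genes lie in one stretch of 3R, from 26619118 to 26632956. 3 of 29 tested members were higher and 16 lower (10.3% and 55.2%, against 6.68% and 14.7% of all genes tested), with a median of −3.05. The summed level was 7405, 6990 and 6578 CPM in double null libraries 1 to 3 and 8883, 6050 and 6177 CPM in WT, which overlaps. TwdlD and Vajk4 were low in WT replicate 3 as well, at 0.632, 0.571 and 1.53 CPM in the double null libraries, against 271, 219.6 and 4.3 CPM in WT for TwdlD and 0.553, 1.04 and 0.589 CPM in the double null libraries, against 111, 91.8 and 7.94 CPM in WT for Vajk4. Over the fits that leave out 1 of the 6 compared libraries, 12 to 17 were lower.

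Other genes of the cuticle were mixed. Gasp, a chitin-binding protein of the tracheal lumen, stood at 454, 459.9 and 362 CPM in the double null libraries, against 209, 157 and 146 CPM in WT (log2 fold change 1.32 with an SE of 0.23, adjusted p = 0.0011 by edgeR). obst-A, a chitin-matrix organiser, stood at 18.2, 18.1 and 18.99 CPM in the double null libraries, against 105, 117 and 55.99 CPM in WT (log2 fold change −2.33 with an SE of 0.58, adjusted p = 0.0109 by edgeR). Peritrophin-A stood at 42.1, 33.2 and 38.2 CPM in the double null libraries, against 77.3, 58.3 and 58.4 CPM in WT (log2 fold change −0.78 with an SE of 0.18, adjusted p = 0.00603 by edgeR). Gasp was higher and the others lower without overlap. Of the Obstructor list 1 of 10 tested members were higher (10%) and 4 lower (40%), of 12 members. The lower count was 2 without WT replicate 2 or double null replicate 1 or 2. The higher count was 2 without WT replicate 1, double null replicate 3 or elav null replicate 3 and 2 with DESeq2. Among Osiris genes, which are expressed in a pulse while cuticle is laid down, 0 of 21 tested members were higher and 1 lower (4.76%), of 23 members. That gene, Osi15, stood at 0.253, 0.548 and 0.767 CPM in the double null libraries, against 55.1, 5.92 and 0.211 CPM in WT, so WT replicate 3 lay below the double null, and its call was lost without WT replicate 1 or 2 or any 1 double null library, while 2 genes were lower without WT replicate 3 or elav null replicate 3. DESeq2 called 1 higher and 2 lower of the Osiris genes, and 2 higher and 3 lower had an unadjusted edgeR p under 0.05.

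Chitin and tanning genes split evenly. Cht4, a chitinase, stood at 34.8, 42.5 and 42.1 CPM in the double null libraries, against 8.99, 6.94 and 8.6 CPM in WT (log2 fold change 2.28 with an SE of 0.36, adjusted p = 0.00046 by edgeR). Idgf3, a secreted relative of chitinases, stood at 282, 298 and 232 CPM in the double null libraries, against 134, 108 and 112 CPM in WT (log2 fold change 1.20 with an SE of 0.19, adjusted p = 0.000575 by edgeR). exp, needed for chitin deposition, stood at 27.4, 35.8 and 25.3 CPM in the double null libraries, against 77.6, 75.1 and 63.1 CPM in WT (log2 fold change −1.29 with an SE of 0.22, adjusted p = 0.000863 by edgeR). The groups were apart in each. 5 of 28 tested members were higher and 6 lower in this list (17.9% and 21.4%, against 6.68% and 14.7% of all genes tested), at a median of 0.01. The moulting chitinase gene Cht5 (−3.85) was the deepest fall and the chitin synthase gene kkv (0.45) was not called. In the tanning list 4 of 17 tested members were higher and 5 lower (23.5% and 29.4%, against the same shares of all genes). y, the yellow gene of dark pigment, stood at 20.6, 26.1 and 25.1 CPM in the double null libraries, against 83.5, 59.3 and 64.4 CPM in WT (log2 fold change −1.53 with an SE of 0.20, adjusted p = 0.000124 by edgeR), and t, which frees dopamine from a conjugate, stood at 21.98, 19.4 and 17.9 CPM in the double null libraries, against 8.11, 5.32 and 8.66 CPM in WT (log2 fold change 1.42 with an SE of 0.23, adjusted p = 0.000581 by edgeR). Ddc, ple (−1.47), e (−1.26) and yellow-d (−0.57) were lower too, and yellow-f (2.03), yellow-h (0.84) and speck (0.78) higher.

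Epidermal and tracheal genes were mostly not called. Of epidermis and septate junction genes 0 of 20 tested members were higher and 3 lower, at a median of −0.07. The lower share was 15%, against 14.7% of all genes tested. pot, a zona pellucida protein that holds epidermis to cuticle, stood at 38.95, 32.6 and 42.7 CPM in the double null libraries, against 135, 156 and 195 CPM in WT (log2 fold change −2.09 with an SE of 0.25, adjusted p = 6.63e-05 by edgeR), and zye, another of that family, stood at 24.6, 36.6 and 31.5 CPM in the double null libraries, against 63.2, 91.2 and 115 CPM in WT (log2 fold change −1.54 with an SE of 0.25, adjusted p = 0.000558 by edgeR). Both were lower in all 3 double null libraries. The third, mey (−2.21), was no longer called without double null replicate 1 or WT replicate 2. The count was 5 without WT replicate 1, and 1 gene was higher without elav null replicate 3. Septate junction genes such as cora (0.21), sinu (−0.34) and kune (−0.12) and the epidermal factor grh (0.09) did not pass the test. Of 11 tracheal genes 0 were higher and 1, bnl (−0.94), lower (9.09%). That call was lost without double null replicate 2 or WT replicate 2. The count was 3 in the fit that left out WT replicate 1 and 2 in the one that left out elav null replicate 3. DESeq2 called 0 higher and 1 lower of them, and 0 higher and 4 lower had an unadjusted edgeR p under 0.05.

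Antimicrobial peptide genes were higher in the double null, with the highest median of the 52 lists. These peptides are secreted by fat body and surface tissues when the Toll or Imd pathway is active. Of 26 tested (34 in all), 16 were higher and 1 lower, at a median of 4.95, and the summed level was 2089, 1257 and 2384 CPM in double null libraries 1 to 3 and 50.5, 11.5 and 33.3 CPM in WT. Drs (CG10810, 3L: 3369556 to 3369942), the antifungal drosomycin, stood at 318, 195 and 384 CPM in the double null libraries, against 4.91, 1.17 and 2.43 CPM in WT (log2 fold change 6.71 with an SE of 0.60, adjusted p = 9.36e-06 by edgeR). BomBc1, a Bomanin of the Toll response, stood at 130.4, 91.3 and 139 CPM in the double null libraries, against 1.48, 0.457 and 2.097 CPM in WT (log2 fold change 6.48 with an SE of 0.54, adjusted p = 5.42e-06 by edgeR). AttB, an attacin against bacteria, stood at 323, 216 and 163 CPM in the double null libraries, against 3.297, 3.26 and 4.07 CPM in WT (log2 fold change 6.05 with an SE of 0.58, adjusted p = 1.44e-05 by edgeR). The double null libraries were far above WT in each and within 2-fold of each other. BomBc2 stood at 132, 105 and 175 CPM in the double null libraries, against 0.699, 0.0714 and 0.272 CPM in WT (log2 fold change 8.57 with an SE of 1.05, adjusted p = 7.57e-05 by edgeR), and AttC stood at 19.01, 22.2 and 25 CPM in the double null libraries, against 0.273, 0 and 0.166 CPM in WT (log2 fold change 7.18 with an SE of 0.88, adjusted p = 7.36e-05 by edgeR). BomS2, BomT2 and Dro, the remaining peptide genes among the 8 highest, had log2 fold changes of 7.06, 7.15 and 6.79, and Mtk was at 5.09. AttA and AttB, and the Bomanin genes among themselves, are similar enough that reads may be split between them. Drsl2 (−4.39) was lower, and CecC (−0.61), AttD (0.08) and DptB (2.81) were not called. The higher count was 13 to 17 over the fits that leave out 1 of the 6 compared libraries, 17 without double null replicate 2 and 18 without elav null replicate 3. Drsl2 was the lower call, and the lower count was 0 without WT replicate 1 or double null replicate 1.

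Upstream genes of these pathways were called less. SPE, the protease that cuts the Toll ligand, stood at 162, 109 and 132 CPM in the double null libraries, against 12.6, 5.07 and 7.14 CPM in WT (log2 fold change 4.02 with an SE of 0.50, adjusted p = 8.5e-05 by edgeR). GNBP3, a sensor of fungal wall sugars, stood at 47.1, 33.8 and 35.1 CPM in the double null libraries, against 17.2, 19.6 and 17.3 CPM in WT (log2 fold change 1.10 with an SE of 0.17, adjusted p = 0.00048 by edgeR). nec, a serpin that restrains Toll signalling, stood at 100.5, 81.1 and 69.7 CPM in the double null libraries, against 32.7, 20.3 and 36.1 CPM in WT (log2 fold change 1.495 with an SE of 0.28, adjusted p = 0.00172 by edgeR). All 3 were higher in the double null without overlap. 7 of 32 tested members were higher and 1 lower (21.9% and 3.13%, against 6.68% and 14.7% of all genes tested), and the median was 0.20. PGRP-SD (2.78), GNBP1 (1.33), GNBP2 (1.01) and the receptor gene Tl (1.05) were the other higher genes and PGRP-SC2 (−1.41) the lower one. The signalling core was not called, with Dif at −0.41, dl at 0.14, cact at 0.04, imd at −0.18 and Rel at 0.37. DESeq2 called 11 higher and 1 lower of the list.

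Most haemocyte genes, those of the blood cells, were not called. Sr-CI, a scavenger receptor, stood at 74.3, 74.9 and 57.1 CPM in the double null libraries, against 22.3, 17.6 and 23.1 CPM in WT (log2 fold change 1.71 with an SE of 0.19, adjusted p = 3.84e-05 by edgeR). NimC1, a phagocytosis receptor, stood at 34.2, 32.8 and 26.4 CPM in the double null libraries, against 15.3, 11.05 and 12.5 CPM in WT (log2 fold change 1.27 with an SE of 0.19, adjusted p = 0.000312 by edgeR), and NimB4 stood at 102, 77.8 and 82.4 CPM in the double null libraries, against 50.1, 32.5 and 37.2 CPM in WT (log2 fold change 1.13 with an SE of 0.21, adjusted p = 0.00129 by edgeR). Double null libraries were the higher ones in all 3. 4 of 21 tested members were higher and 2 lower (19% and 9.52%, against 6.68% and 14.7% of all genes tested) at a median of 0.45. DESeq2 called 8 higher and 2 lower, and 7 were higher without the 3 libraries of fewest detected genes. The lower genes were the crystal cell enzymes PPO1 (−2.0002) and PPO2 (−1.21), of which 0 were called without double null replicate 1 or 3 and 1 without WT replicate 2 or double null replicate 2. Genes that define the macrophage class were not called, with Hml at 0.45, Pxn at −0.09, crq at −0.31 and srp at 0.10.

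In the list of JAK-STAT and JNK stress genes 2 of 22 tested members were higher and 2 lower, of 25 members. Each share was 9.09% of those tested, against 6.68% higher and 14.7% lower over all genes tested. The thioester protein genes Tep4 and Tep2, whose products bind microbes, were the higher ones. Tep4 stood at 1145, 989 and 764 CPM in the double null libraries, against 351, 361 and 559 CPM in WT (log2 fold change 1.19 with an SE of 0.24, adjusted p = 0.00267 by edgeR), and Tep2 stood at 211, 197 and 154 CPM in the double null libraries, against 56.1, 60.2 and 93.7 CPM in WT (log2 fold change 1.42 with an SE of 0.33, adjusted p = 0.00671 by edgeR). Ets21C, a transcription factor gene of the JNK response, stood at 12.1, 15.02 and 11.97 CPM in the double null libraries, against 26.03, 60.6 and 74.5 CPM in WT (log2 fold change −2.04 with an SE of 0.32, adjusted p = 0.00039 by edgeR), and the JAK-STAT feedback gene Socs36E was lower (−0.87). The groups were apart for the first 3, with the double null the higher side for the Tep genes and the lower for Ets21C, while upd3 (−1.28), puc (0.22) and TotA (−0.09) were not called. Ets21C was also low in the other mutants, at 8.89, 6.96 and 8.50 CPM in elav null and 7.85, 6.30 and 7.32 CPM in elav WDd. It was not called between the double null and either of them. Members called lower were 1 without WT replicate 2 or 3 or double null replicate 1 or 3.

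Heat shock genes were higher, with uneven double null libraries. Hsp26 (CG4183, 3L: 9376418 to 9377427), a small heat shock protein, stood at 712, 239 and 170.1 CPM in the double null libraries, against 25.98, 23.2 and 12.5 CPM in WT (log2 fold change 4.18 with an SE of 0.69, adjusted p = 0.000666 by edgeR). Hsp23 stood at 194, 90.1 and 53.4 CPM in the double null libraries, against 12.1, 13.9 and 6.35 CPM in WT (log2 fold change 3.38 with an SE of 0.50, adjusted p = 0.000294 by edgeR). DnaJ-1, a co-chaperone of Hsp70, stood at 709, 351 and 221 CPM in the double null libraries, against 94.7, 119.6 and 60.2 CPM in WT (log2 fold change 2.22 with an SE of 0.38, adjusted p = 0.000867 by edgeR). In each of them double null replicate 1 was the highest and replicate 3 the lowest, and still all 3 lay above WT. Hsp70Ab stood at 41.2, 14.8 and 6.299 CPM in the double null libraries, against 1.26, 0.9002 and 0.558 CPM in WT (log2 fold change 4.51 with an SE of 0.65, adjusted p = 0.000228 by edgeR), and the 6 Hsp70 copies, which are nearly identical and may share reads, were called at log2 fold changes of 4.42 to 5.55. Of the large heat shock proteins and co-chaperones 8 of 15 tested members were higher (53.3%) and 1 lower (6.67%). Of the small ones 3 of 6 tested members were higher (50%) and 1 lower (16.7%), of 8 members. Over all genes tested the shares were 6.68% and 14.7%.

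The stress set was not uniform. l(2)efl, a small heat shock protein of muscle and other tissues, stood at 20.8, 18.3 and 12.7 CPM in the double null libraries, against 138, 144 and 140.4 CPM in WT (log2 fold change −3.03 with an SE of 0.61, adjusted p = 0.00264 by edgeR). Hsp60A, the chaperonin of mitochondria, stood at 141, 136 and 122 CPM in the double null libraries, against 549, 583 and 462 CPM in WT (log2 fold change −2.0001 with an SE of 0.25, adjusted p = 8.34e-05 by edgeR). Both were lower without overlap. Hsp83 (0.27), Hsc70-4 (−0.46) and Hsf (0.22), the transcription factor of the response, were not called. The large list's higher count was 7 to 9 and the small list's 2 to 4 over the fits that leave out 1 of the 6 compared libraries.

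Genes of the nucleolus were lower in a block. Nopp140 (CG7421, 3L: 21832774 to 21836685), a nucleolar scaffold, stood at 59.7, 72.5 and 60.6 CPM in the double null libraries, against 253, 262 and 239.6 CPM in WT (log2 fold change −1.97 with an SE of 0.15, adjusted p = 2.98e-06 by edgeR). Nop56, a core protein of the RNA particles that methylate rRNA, stood at 63.6, 62.95 and 58.1 CPM in the double null libraries, against 322, 312 and 236 CPM in WT (log2 fold change −2.24 with an SE of 0.19, adjusted p = 5.42e-06 by edgeR). nop5, its partner, stood at 84.1, 77.8 and 73.6 CPM in the double null libraries, against 417, 397 and 327 CPM in WT (log2 fold change −2.28 with an SE of 0.21, adjusted p = 1.27e-05 by edgeR). The 3 double null values were within a narrow range in each, far under WT. Of the ribosome biogenesis list 2 of 21 tested members were higher and 16 lower, at a median of −1.65, and 16 were lower in each fit that left out 1 library and by DESeq2. Surf6 (−2.45), ppan (−2.16), pit (−1.67), bys (−1.51) and Fib (−1.41), which encodes fibrillarin, were among them. Non1 (0.76) and Nop17l (0.69) were higher, and Myc (−0.16), the transcription factor known to drive this gene set in flies, was not called. The higher count was 0 without double null replicate 2 and 1 without any other single library of the comparison.

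Mitochondrial ribosomal protein genes were lower nearly throughout, while cytosolic ones were not. mRpL14 stood at 6.88, 8.24 and 5.69 CPM in the double null libraries, against 38.04, 24.7 and 20.1 CPM in WT (log2 fold change −1.99 with an SE of 0.28, adjusted p = 0.000221 by edgeR). mRpL30 stood at 14.1, 15.5 and 14.6 CPM in the double null libraries, against 53.1, 46.9 and 28.5 CPM in WT (log2 fold change −1.54 with an SE of 0.23, adjusted p = 0.000283 by edgeR), and mRpL3 stood at 17.9, 14.02 and 15.8 CPM in the double null libraries, against 50.4, 49.5 and 40.01 CPM in WT (log2 fold change −1.55 with an SE of 0.23, adjusted p = 0.000299 by edgeR). The groups did not overlap, and WT replicate 3 was the lowest WT library in all 3. 0 of 72 tested members were higher and 52 lower, and all 72 log2 fold changes were below 0, with a median of −1.35. The count was 36 to 61 over the fits that leave out 1 of the 6 compared libraries, 48 without double null replicate 2 and 62 without elav null replicate 3. With DESeq2 the counts were 0 higher and 53 lower, and 0 higher and 64 lower had an unadjusted edgeR p under 0.05. Of the cytosolic ribosomal proteins 2 of 88 tested members were higher and 1 lower, at a median of 0.23. The 3 called are duplicate or variant copies, which may share reads with their partners, RpLP0-like at −1.81, RpL22-like at 1.59 and RpS14b at 0.98. The RpS14b call was lost without WT replicate 2, and the higher count was 7 without WT replicate 1 and 4 with DESeq2.

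Aminoacyl-tRNA synthetase genes were lower in part. LeuRS stood at 32.4, 32.2 and 32.3 CPM in the double null libraries, against 67.7, 81.6 and 75.2 CPM in WT (log2 fold change −1.21 with an SE of 0.15, adjusted p = 7.97e-05 by edgeR). ValRS stood at 48, 39.7 and 43.4 CPM in the double null libraries, against 75.3, 89.2 and 89.4 CPM in WT (log2 fold change −0.95 with an SE of 0.15, adjusted p = 0.000544 by edgeR), and SerRS stood at 52.4, 48.7 and 44.7 CPM in the double null libraries, against 101, 98.9 and 79.95 CPM in WT (log2 fold change −0.94 with an SE of 0.16, adjusted p = 0.000729 by edgeR). Each charges a tRNA of the cytosol with the amino acid of its name, and for each the groups were apart. In this list 0 of 33 tested members were higher and 17 lower (51.5%, against 14.7% of all genes tested), at a median of −0.66. The count was 9 without double null replicate 3 and 10 without WT replicate 2, DESeq2 called 0 higher and 17 lower, and 0 higher and 21 lower had an unadjusted edgeR p under 0.05.

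Nuclear genes of the respiratory chain were lower by smaller amounts, with less even support. Cyt-c-p (CG17903, 2L: 16719932 to 16722644), the somatic cytochrome c, stood at 90.1, 87.7 and 89.9 CPM in the double null libraries, against 1028, 799 and 512 CPM in WT (log2 fold change −3.13 with an SE of 0.35, adjusted p = 4.05e-05 by edgeR). ND-AGGG, of complex I, stood at 16.8, 19.1 and 14.3 CPM in the double null libraries, against 61.2, 60.5 and 35.4 CPM in WT (log2 fold change −1.65 with an SE of 0.23, adjusted p = 0.000193 by edgeR). SdhA, the catalytic part of complex II, stood at 203, 203 and 165 CPM in the double null libraries, against 364, 417 and 401 CPM in WT (log2 fold change −1.05 with an SE of 0.18, adjusted p = 0.000699 by edgeR). No values overlapped, and in Cyt-c-p and ND-AGGG WT replicate 3 was the lowest WT library. 1 of 79 tested members were higher and 42 lower (1.27% and 53.2%, against 6.68% and 14.7% of all genes tested), at a median of −0.79. The summed level was 11319, 10874 and 9931 CPM in double null libraries 1 to 3 and 24251, 20761 and 15660 CPM in WT. Lower members numbered 17, 22 and 57 without WT replicates 1, 2 and 3, and 24, 16 and 20 without double null replicates 1, 2 and 3. The higher gene, COX6AL2, is a variant subunit that lost its call without any 1 of these libraries, and the higher count was then 0.

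The mitochondrial genome itself did not follow. Of 22 tested genes (37 in all) 1 was higher and 0 lower, and the protein genes COX1 (−0.10), COX2 (0.15), CYTB (0.26) and ND5 (0.05) were not called. The higher gene was the small rRNA gene srRNA, at 57.8, 118 and 71.5 CPM in the double null libraries, against 5.197, 10.3 and 6.71 CPM in WT (log2 fold change 3.48 with an SE of 0.79, adjusted p = 0.00586 by edgeR). The lower count was 2 without elav null replicate 3, and without the 3 libraries of fewest detected genes 2 were higher and 4 lower. With the 6 compared libraries alone 4 were higher and 2 lower. DESeq2 called 1 higher and 3 lower, and 1 higher and 3 lower had an unadjusted edgeR p under 0.05. Leaving out the mitochondrial genes before normalisation gave 930 genes higher and 2068 lower over the whole table.

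Glycolysis genes were lower too. Ldh (CG10160, 3L: 6259105 to 6262694), lactate dehydrogenase, stood at 102, 103 and 103 CPM in the double null libraries, against 538, 595 and 551 CPM in WT (log2 fold change −2.45 with an SE of 0.29, adjusted p = 6.47e-05 by edgeR). Gpdh1, which supplies the glycerol phosphate shuttle, stood at 300.3, 265 and 254 CPM in the double null libraries, against 835, 952 and 773 CPM in WT (log2 fold change −1.64 with an SE of 0.17, adjusted p = 2.27e-05 by edgeR). Pfk, the committing step, stood at 191, 187 and 151 CPM in the double null libraries, against 380.0, 433 and 516 CPM in WT (log2 fold change −1.33 with an SE of 0.18, adjusted p = 0.000153 by edgeR). The double null values were below WT in each and nearly equal in Ldh. 0 of 16 tested members were higher and 10 lower at a median of −0.81, and ERR (0.27), the nuclear receptor gene that drives glycolysis in fly embryos, was not called. Members called lower were 6 without WT replicate 1 or double null replicate 2 or 3, DESeq2 called 1 higher and 10 lower, and 0 higher and 11 lower had an unadjusted edgeR p under 0.05. Muscle expresses several of these genes strongly, and the muscle sum was lower in the same libraries, at 7060, 9014 and 7866 CPM in double null libraries 1 to 3 and 64455, 58784 and 68673 CPM in WT. Its part in this result was not tested.

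**Figure D3:**
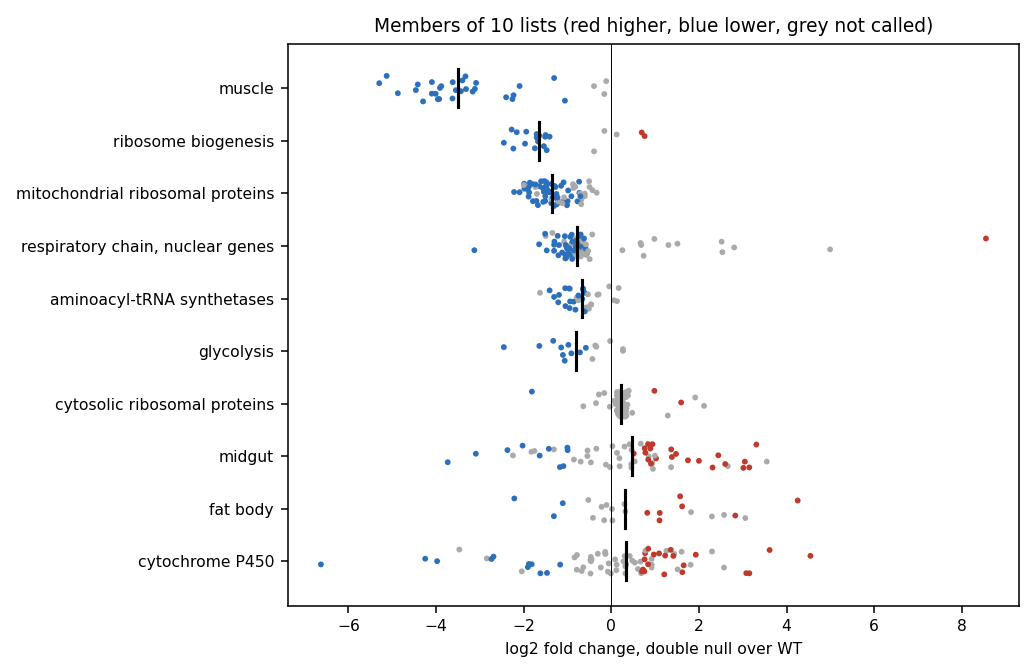
Log2 fold change of the double null over WT for each tested member of 10 lists, 1 point per gene, red for genes called higher, blue for genes called lower and grey for the rest, with a black bar at the list median. Medians run from −3.49 for muscle and −1.65 for ribosome biogenesis through 0.23 for cytosolic ribosomal proteins to 0.46 for midgut.

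Digestive enzymes of the midgut were in part higher. Amy-p (CG18730, 2R: 17118636 to 17120303), an amylase, stood at 492, 472 and 449.7 CPM in the double null libraries, against 52.2, 56.9 and 66.04 CPM in WT (log2 fold change 3.01 with an SE of 0.16, adjusted p = 5.01e-07 by edgeR). Its near-copy Amy-d, which may share its reads, stood at 136, 121 and 117 CPM in the double null libraries, against 12.6, 9.002 and 16.1 CPM in WT (log2 fold change 3.31 with an SE of 0.26, adjusted p = 3.36e-06 by edgeR). Mal-B2, a maltase, stood at 53.3, 38.7 and 43.3 CPM in the double null libraries, against 9.27, 7.75 and 10.3 CPM in WT (log2 fold change 2.31 with an SE of 0.20, adjusted p = 6.55e-06 by edgeR). The double null libraries were several times above WT and close to each other. The serine protease gene Jon25Biii, abundant in both groups, stood at 2441, 2033 and 2414 CPM in the double null libraries, against 766, 735 and 550.0 CPM in WT (log2 fold change 1.75 with an SE of 0.19, adjusted p = 2.9e-05 by edgeR). 21 of 61 tested members were higher and 10 lower (34.4% and 16.4%, against 6.68% and 14.7% of all genes tested) with a median of 0.46. The higher genes include the sugar enzymes Amy-p, Amy-d, Mal-A1, Mal-A3, Mal-A4, Mal-A6, Mal-A7, Mal-A8, Mal-B1 and Mal-B2, while Mal-A5 (−3.73) was lower. The other lower genes include 5 mucins, Muc91C (−3.09), Muc96D (−2.37), Muc68Ca (−1.64), Muc55B (−1.43) and Muc26B (−1.17). The higher count was 18 to 20 over the fits that leave out 1 of the 6 compared libraries and 22 without elav null replicate 3, and the lower count was 5 without WT replicate 2, double null replicate 1 or double null replicate 3, and 6 without double null replicate 2.

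Part of the fat body genes were higher. tobi, an alpha-glucosidase gene known to answer to diet and insulin, stood at 168, 134 and 121 CPM in the double null libraries, against 7.87, 4.87 and 9.45 CPM in WT (log2 fold change 4.25 with an SE of 0.51, adjusted p = 6.33e-05 by edgeR). Amyrel, an amylase relative, stood at 43.2, 42.8 and 34.9 CPM in the double null libraries, against 3.54, 9.16 and 4.33 CPM in WT (log2 fold change 2.83 with an SE of 0.37, adjusted p = 0.000109 by edgeR). bmm, the fat lipase, stood at 344, 367 and 226 CPM in the double null libraries, against 124, 85.9 and 106 CPM in WT (log2 fold change 1.57 with an SE of 0.21, adjusted p = 0.000129 by edgeR). Every double null library was above WT in the 3 genes. Pepck2 (1.61) and AkhR (1.10), the receptor of the fuel-releasing hormone, were higher too, and the droplet proteins Lsd-1 (−2.21) and Lsd-2 (−1.31) and the lipid carrier apolpp (−1.11) lower. 7 of 23 tested members were higher and 3 lower, of 25 members (30.4% and 13% of those tested, against 6.68% and 14.7% of all genes), at a median of 0.32, and the 7 higher calls were 7 in each fit that left out 1 library.

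Of the detoxification families, cytochrome P450 genes were called higher more often than lower. Cyp6g1 (CG8453, 2R: 12185667 to 12188431), a cytochrome P450 known from insecticide resistance, stood at 195, 183 and 146 CPM in the double null libraries, against 8.43, 6.22 and 7.82 CPM in WT (log2 fold change 4.54 with an SE of 0.26, adjusted p = 7.38e-07 by edgeR). Cyp6a9 stood at 42.5, 32 and 38.9 CPM in the double null libraries, against 4.04, 1.94 and 3.27 CPM in WT (log2 fold change 3.61 with an SE of 0.28, adjusted p = 3.28e-06 by edgeR), and Cyp6a2 stood at 29.2, 24.3 and 28.7 CPM in the double null libraries, against 155, 164 and 211 CPM in WT (log2 fold change −2.69 with an SE of 0.22, adjusted p = 4.82e-06 by edgeR). Cyp6g1 and Cyp6a9 were higher and Cyp6a2 lower, without overlap, and the spans of all 3 overlap a neighbour. Cyp309a2, at 0.174, 0 and 0.428 CPM in the double null libraries, against 29.9, 19.3 and 7.65 CPM in WT (log2 fold change −6.63 with an SE of 1.29, adjusted p = 0.0021 by edgeR), was the lowest of the family. 20 of 79 tested members were higher and 11 lower, of 81 members (25.3% and 13.9% of those tested, against 6.68% and 14.7% of all genes), at a median of 0.33, and the higher count was 12 without WT replicate 2 and 13 without WT replicate 3. Of the glutathione transferases 7 of 35 tested members were higher and 7 lower (20% each), with 11 lower without elav null replicate 3. The called genes include GstT4 (1.71), GstD7 (−1.93) and GstE3 (−1.74). Of the UDP-glycosyltransferases 1 of 35 tested members were higher and 7 lower (2.86% and 20%), with Ugt37D1 (−2.64), Ugt37C2 (−1.86) and Ugt37A2 (−1.78) lower. Members lower numbered 4 without double null replicate 3, and the higher count was 0 without WT replicate 2 or 3 or double null replicate 1 and 3 without elav null replicate 3.

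Lists for hormone response, cell death, body pattern and egg coat showed few calls. Of ecdysone response genes 0 of 19 tested members were higher and 2 lower (10.5%, against 14.7% of all genes tested). Hr38, a nuclear receptor gene that also responds to neuronal activity, stood at 3.57, 11.5 and 6.01 CPM in the double null libraries, against 17.01, 45.8 and 97.3 CPM in WT (log2 fold change −2.92 with an SE of 0.55, adjusted p = 0.00159 by edgeR), and Eip74EF (−1.24) was not called without WT replicate 1 or double null replicate 1 or 2. Hr38 was also low in the other mutants, at 8.63, 6.56 and 6.31 CPM in elav null and 4.43, 6.61 and 6.39 CPM in elav WDd. It was not called between the double null and either of them. In this list DESeq2 called 2 higher and 2 lower, and 2 were higher without elav null replicate 3. Of ecdysteroid synthesis genes 0 of 14 tested members were higher and 0 lower, with the same counts by DESeq2 and at an unadjusted edgeR p under 0.05. Of eggshell and yolk genes, which mark maternal tissue, 0 of 17 tested members were higher and 0 lower, also with the same counts by DESeq2 and at an unadjusted p, but 1 was higher without elav null replicate 3 and 4 without the 3 libraries of fewest detected genes. In the cell death list 2 of 15 tested members were higher (13.3%, against 6.68% of all genes tested) and 0 lower. These were the caspase gene Drice (0.79), lost without WT replicate 2 or 3 or double null replicate 3, and skl (1.90), lost without WT replicate 1 or 3 or double null replicate 2 or 3. rpr (0.77), hid (1.16) and grim (4.13) were not called, while DESeq2 called 6 higher and 0 lower. Higher members numbered 5 with the 6 compared libraries alone, 5 with RLE size factors and 5 without elav null replicate 3.

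Of segmentation genes 2 of 18 tested members were higher (11.1%, against 6.68% of all genes tested) and 0 lower. Both, hry (0.79) and slp2 (0.90), were lost without WT replicate 1 or double null replicate 1. Of the 8 Hox genes 1 was higher and 2 lower (12.5% and 25%, against 6.68% and 14.7% of all genes tested). lab, of the head and midgut, stood at 24.6, 23.9 and 22.3 CPM in the double null libraries, against 14.03, 15.5 and 11.4 CPM in WT (log2 fold change 0.79 with an SE of 0.19, adjusted p = 0.00784 by edgeR). Ubx (−0.75) and abd-A (−0.69) were lower, and both calls were lost without WT replicate 2 or 3 or double null replicate 1 or 2, with RLE size factors and with the 6 compared libraries alone.

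**Figure D4:**
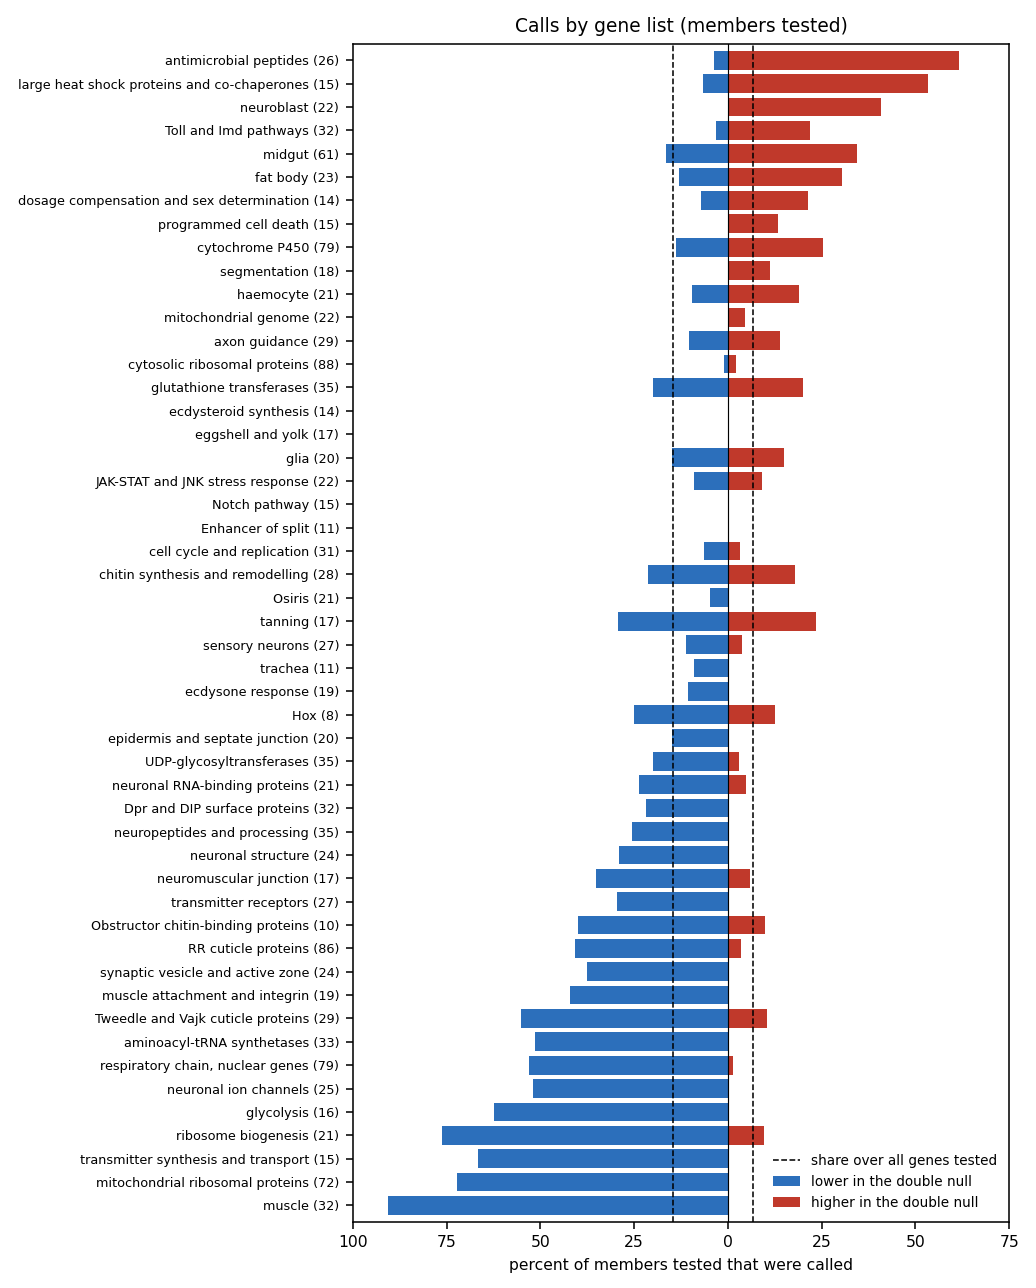
Share of tested members of the lists with at least 8 tested members that were called higher (red, to the right) or lower (blue, to the left) in the double null, in percent of members tested, ordered by the share higher minus the share lower, with the number tested in brackets. Dashed lines mark the shares over all genes tested, 6.68% higher and 14.7% lower. Muscle reaches 90.6% lower and antimicrobial peptides 61.5% higher.

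The X chromosome, the sex-linked genes and the small chromosomes were examined because the groups differ in the FM7 balancer and may differ in sex. The medians of the 5 large arms lay between −0.09 on X and 0.01 on 2L. roX1, an RNA of the male dosage compensation complex, stood at 861, 733 and 1039 CPM in the double null libraries, against 225, 300.1 and 282 CPM in WT (log2 fold change 1.71 with an SE of 0.19, adjusted p = 4.17e-05 by edgeR). roX2, its partner, stood at 39.5, 34.2 and 46.4 CPM in the double null libraries, against 8.61, 7.83 and 4.904 CPM in WT (log2 fold change 2.49 with an SE of 0.25, adjusted p = 2.22e-05 by edgeR). Sxl, the female switch gene, stood at 159, 219 and 153 CPM in the double null libraries, against 212, 244 and 349 CPM in WT, with a log2 fold change of −0.60 that was not called (edgeR adjusted p = 0.057). The roX genes were higher without overlap, and the Sxl ranges overlapped. Both roX genes were also called higher than WT in the other mutants. Log2 fold changes over WT were 1.25 for roX1 and 2.75 for roX2 in elav null, and 1.45 and 1.62 in elav WDd. Sxl was called lower without WT replicate 1 and without double null replicate 2. msl-2 (0.21) was not called, mof was higher (1.15), and mle (−0.73) was lower but lost without WT replicate 3 or double null replicate 2 or 3. The dosage compensation list had 3 higher, and 2 without WT replicate 2 or 3 or double null replicate 1 or 3.

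Of 22 tested Y genes 6 were higher (27.3%), at a median of 4.02, and their summed level was 12.9 to 25.5 CPM in the double null and 1.86 to 6.52 CPM in WT. It was 8.39 to 12.35 CPM in elav null and 10.2 to 24.7 CPM in elav WDd, where the single gene FDY held 6.87 to 13.2 CPM, against 0.321 to 1.68 CPM in the double null. In WT FDY held 3.69, 4.26 and 0.528 CPM, and its log2 fold change of −1.67 was not called. The Y genes called higher were lncRNA:CR40719 and copies of the Su(Ste) repeat, which may share reads. Their means were 0.899 to 2.26 CPM in the double null and 0 to 0.183 CPM in WT, so these ratios rest on values near the floor. Between the double null and WT alone, the share of males, the balancer and the 2 null alleles cannot be told apart.

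Genes of chromosome 4 were lower as a group. Of 100 tested, 1 was higher and 32 lower (32%, against 14.7% over all genes), 82 log2 fold changes were below 0, and the median was −0.46. Their summed level was 10363, 12245 and 9171 CPM in double null libraries 1 to 3 and 18300, 20984 and 20930 CPM in WT, without overlap. Against the same WT libraries the chromosome 4 median was −0.30 in elav null and 0.23 in elav WDd. Both bt and Syt7 lie on this chromosome, and bt alone made up 174, 284 and 206 CPM of the double null sums and 2453, 3280 and 4596 CPM of the WT sums.

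**Figure D5:**
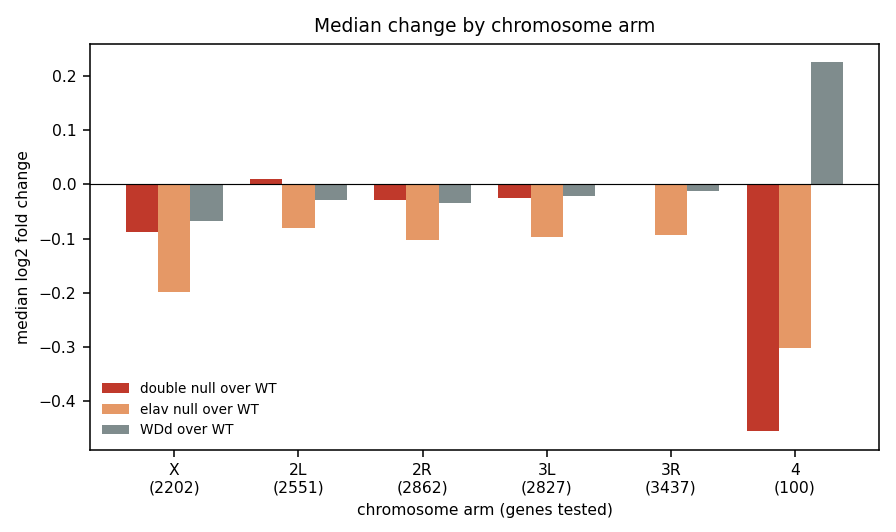
Median log2 fold change over the genes tested on each chromosome arm for the double null (red), elav null (orange) and elav WDd (grey), each over the same 3 WT libraries, with the number of genes under each arm. The double null bar lies between −0.09 and 0.01 on the 5 large arms and at −0.46 on chromosome 4.

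A single gene had no counts in any double null library and at least 1 CPM in every WT library. Setd3 (CG32732, X: 6958032 to 6968750), which encodes a histidine methyltransferase of actin, had 0 counts in all 3 double null libraries and 2055, 1176 and 1125 counts in WT. Taking 3 counts over the double null group as the limit of detection, it was at least 1240-fold lower in the double null. It stood at 18.7 ± 3.20 CPM in WT and 18.6 ± 1.18 CPM in elav WDd (SD, n = 3 each). In elav null it stood at 5.89 and 4.54 CPM in replicates 1 and 2 and had 0 counts in the library labelled elav null replicate 3. No gene had the opposite pattern. Setd3 lies on X, and its span overlaps that of CG14431.

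The double null was next set against elav null, which shares the loss of elav. The library labelled elav null replicate 3 stood apart from its group. Its fne level was 36.2 CPM. In the double null fne was at 19.6 to 30.6 CPM, while the other elav null libraries had 173 and 243 CPM. In a fit with only the 6 libraries of the double null and elav null, 0 genes were higher and 0 lower. With all libraries 6 genes were higher (0.0428%) and 26 lower (0.185%) in the double null. Setd3 and fne were among the lower genes, and so were the neuronal genes Snap25 (1.25 to 2.13 CPM in the double null, against 23.6, 40.3 and 10.1 CPM in elav null), Proc, Nplp1, Syt7, SerT, Lcch3, Shal and ppk. Each double null library was below each elav null library for Snap25. A fit that left elav null replicate 3 out gave 321 of 14697 genes higher (2.18%) and 726 lower (4.94%). That library was left out for values near those of the double null, so more calls can follow from the choice alone. The counts of this fit are descriptions.

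In that fit muscle genes gave 26 of 32 lower in the double null than in elav null, transmitter receptors 13 of 27, neuropeptides 15 of 35, Dpr and DIP genes 10 of 32, glycolysis 10 of 16, transmitter synthesis 9 of 15 and vesicle genes 9 of 24. Neuroblast genes gave 6 of 22 higher and Notch pathway genes 4 of 15. The RR cuticle list gave 2 higher and 3 lower of 86, ribosome biogenesis 1 higher and 0 lower of 21, and the antimicrobial list 2 higher and 0 lower of 29. Eggshell and yolk genes, of maternal tissue, gave 9 of 17 lower. Fits without replicates 1 or 2 of elav null moved the counts as well, to 1 higher and 2 lower without replicate 1, and to 64 higher without replicate 2.

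Against elav WDd, whose elav level was 164 ± 24.2 CPM (SD, n = 3), the double null had 926 genes higher (6.6%) and 2007 lower (14.3%). Of the 937 and 2061 genes called against WT, 673 and 1718 were called in the same direction against WDd. The double null libraries enter both comparisons, so the counts are not independent.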

How the data were processed

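Whole embryos of 4 genotypes gave 12 poly(A) RNA libraries, sequenced as 150 bp read pairs. The authors deposited 1 table of raw counts per gene. Per the submitters' processing notes the build was dm6 and the tools include DESeq2 1.40.2, featureCounts 2.0.8 for counting, the aligner STAR 2.7.11a and the trimmer Trim Galore 0.6.7. Strand use and the handling of reads with several matches are not given in the sources used here, so reads of overlapping genes and of near-identical copies cannot be told apart. Of 157 named genes, 57 overlap another gene.

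All 17561 gene numbers were matched to RefSeq symbols. Counts were scaled by TMM, filtered with filterByExpr and fitted with the quasi-likelihood model of edgeR 4.0.16 (R 4.3.3) over all 12 libraries, which share 1 estimate of the spread, with genotype as the only term. This left 14031 genes, with p-values adjusted by Benjamini-Hochberg over all of them and a threshold of 0.05. The SE is the log2 fold change divided by the square root of the F statistic. The fit was also run on simulated data, with equal numbers of rises and falls and no outlying library. That run does not show how the fit behaves on these libraries. At these depths 3 counts correspond to 0.0309 to 0.133 CPM, which covers counting error only.

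The members and the 52 gene lists were chosen with earlier results of these data known, so the counts per list are descriptions. Named genes are the ELAV family and the sex genes roX1, roX2, Sxl and msl-2, the 8 highest and 8 lowest called log2 fold changes among genes with a symbol, a mean of at least 5 CPM and groups that do not overlap, the 4 largest called rises and falls in mean CPM, up to 3 called members per list by smallest adjusted p, and genes without counts in 1 group. Other members are given by log2 fold change only, and were picked after their values were seen. Alternatives were DESeq2 1.42.0, RLE size factors, no filter, a 2-fold minimum, the 6 compared libraries alone, mitochondrial genes left out, a replicate block, leaving out each library, and leaving out the 3 libraries that detected the fewest genes.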

Additional observations from a re-analysis of the deposited data

How the results depend on the processing

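No named gene changed the sign of its log2 fold change against WT in the alternatives run. The balance of higher and lower calls did turn in a few small lists, as for axon guidance (4 higher and 3 lower, but 2 and 5 without WT replicate 1), the mitochondrial genome (1 and 0, but 1 and 3 with DESeq2) and Hox genes (1 and 2, but 1 and 0 with RLE size factors), and also against elav null (6 and 26, but 64 and 23 without elav null replicate 2). Against WT, the double null had 533 genes higher with a 2-fold minimum and 1683 with DESeq2. Over the fits that leave out 1 of the 6 compared libraries or elav null replicate 3 the higher count was 602 to 1292 and the lower count 1436 to 2519, both highest when elav null replicate 3 was dropped. Of 157 named genes, 23 lost their call with a 2-fold minimum, 1 with DESeq2 and 3 with RLE size factors.

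Against elav null the counts were unstable. The higher count was 0 with the 6 compared libraries alone, 249 with DESeq2, 1 with RLE size factors, 0 with the replicate block and 86 without the 3 libraries of fewest detected genes, and 0 to 321 without 1 library. The lower count was 0, 310, 6, 2 and 349 under the same settings, 40 with no filter, and 0 to 726 without 1 library. At an unadjusted edgeR p under 0.05, 824 genes were higher and 1012 lower. Against elav WDd the higher count was 536 with a 2-fold minimum, 1784 with the 6 compared libraries alone, 1858 with DESeq2, 1552 without the 3 libraries and 557 to 1344 without 1 library. The cause of these shifts was not tested.

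Replicate numbers are shared between groups. Same-numbered double null and WT libraries deviated from their group means with correlations of −0.12, 0.03 and 0.24. Deviations within a group of 3 libraries are tied to each other, so these values cannot decide whether the numbers pair the samples. With the replicate block 871 genes were higher and 1917 lower against WT, and 4 of the 157 named genes lost their call. Not every library correlated best with its own number. Depth limits statements on genes near 3 counts, and double null replicate 2, with few low-count genes, limits the low end further.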
